A study of Sus scrofa with 6 samples.

Results

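The pig microRNAs ssc-miR-335 and ssc-miR-489, written miR-335 and miR-489 below, are short repressors of messenger RNAs (miRNAs) cut from introns of protein-coding genes. They were chosen by name, as 2 of the 326 mature pig miRNAs listed for each library, with earlier results of these libraries in view. Among those results were the levels in each library and the difference between the groups, so levels and differences of both are given below as descriptions with no test. Small RNA was sequenced from denuded oocytes, that is, oocytes freed of cumulus cells, of prepubertal gilts. Large-follicle oocytes (LO) came from follicles of 3 to 6 mm, aspirated with a 20-gauge needle on a 10 mL syringe. Small-follicle oocytes (SO) came from follicles under 2 mm, aspirated with a 23-gauge needle on a 5 mL syringe. Each group had 3 libraries, called biological replicates by the series design, from ovaries of slaughtered gilts. The sources used here do not state how many animals or oocytes went into a library. Follicle size, needle and syringe cannot be told apart.

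A miRNA recognises its targets mainly through its seed, bases 2 to 8 of the mature strand. An intronic miRNA is cut from the primary transcript of its host gene, so it can be made whenever the host is transcribed. The host of miR-335 is MEST, an imprinted gene expressed from the paternal allele, whose promoter on the maternal allele becomes methylated while mouse oocytes grow. The host of miR-489 is CALCR, the calcitonin receptor gene. miR-335 is known in human cancer cells as a repressor of metastasis, and miR-489 in mouse muscle as a miRNA that keeps satellite cells quiescent.

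The mature sequences are shown because the deposited tables name miR-335 and miR-489 with no arm given, and the letters show how separable the names are. They are written as deposited, with T for U, and capitals mark the seed. miR-542-3p is shown because it was the single other listed name with the same bases 2 to 7 as miR-489.
miR-335: tCAAGAGCaataacgaaaaatg
miR-489: aGTGACATcacatatacggcgg
miR-542-3p: tGTGACAGattgataactgaaa

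No other listed name had the 7-base seed of miR-335 or that of miR-489. miR-542-3p matched miR-489 over bases 2 to 7 and differed at the last base of the seed. miR-335 held 12 adenines in its 22 bases, or 54.5%, and none of the other listed names held a larger share. The median share of adenine over the 326 names was 22.7%, and miR-489 was at 31.8%. G and C made up 7 of the 22 bases of miR-335 (31.8%) and 11 of the 22 of miR-489, and the median share over all names was 47.6%. With offsets of up to 3 bases and no gaps, the closest listed names matched miR-335 at 12 of 22 bases (miR-130b and miR-148a-3p) and miR-489 at 12 of 22 (miR-191). miR-335 and miR-489 matched each other at 10 of 22.

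In the RefSeq gene table of Sscrofa11.1, the locus of miR-335 lies inside the span of MEST and that of miR-489 inside the span of CALCR. The table does not give exons or strand, and no coordinates are given because the submitters' processing notes name another build, Sscrofa10.2. Along its chromosome the miR-335 locus has those of miR-29b-1 and miR-29a on one side and those of miR-183, miR-96 and miR-182 on the other. The nearest protein-coding genes to MEST are COPG2 and CEP41. CALCR stands between VPS50 and GNGT1, and the miRNA loci listed next along that chromosome are those of miR-100 and miR-214. Of the 326 listed names, 285 matched a locus in the table, and 159 of those had a locus inside a protein-coding gene. Matching was by name and gave at most 1 locus per name. It missed some loci, such as MIR125B-1, so miR-125b counted as unmatched. The names of miR-376a, miR-376c and miR-381 were placed inside many genes at once, so the 159 is not exact.

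Values are reads per 1000000 (RPM), scaled by the authors to a total per library. Those totals were 461505 to 1424130 reads in LO and 1915218 to 2187987 in SO, and listed miRNAs took 7755 to 42541 reads in LO and 44964 to 55230 in SO. Every LO library was shallower than every SO library. Listed miRNAs made up 3.03%, 1.68% and 2.99% of those totals in LO 1, LO 2 and LO 3, against 2.88%, 2.34% and 2.33% in the SO libraries in the same order. LO replicate 2 thus had the fewest listed miRNA reads and the smallest share, so RPM and the share of listed reads are both given below.

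miR-335 was the more abundant of the pair in all 6 libraries, with 1027 reads in all against 307 for miR-489. It had 92.0, 60.7 and 145 RPM in LO replicates 1 to 3, from 53, 28 and 207 reads. In SO replicates 1 to 3 it had 157, 119 and 96.4 RPM, from 300, 228 and 211 reads. The groups overlapped: LO replicate 3 was higher than SO replicates 2 and 3, while LO replicates 1 and 2 were lower than any SO library. miR-335 had a mean of 99.4 ± 42.8 RPM in LO, against 124 ± 30.4 RPM in SO (SD over the 3 libraries of a group, here and below). The log2 fold change was -0.38 (SE 0.52) by limma on log2(RPM + 1), with positive values higher in LO. The SE was smaller on other scalings, with log2 fold changes of -0.36 (SE 0.30) scaled to listed reads, -0.62 (SE 0.30) with TMM and -0.67 (SE 0.30) with upper quartile factors. This scale understates the change of low miRNAs, and the SE follows the trend with abundance over all tested miRNAs. Without LO replicate 2 the log2 fold change was -0.07, and without LO replicate 3 it was -0.69. In pooled oocyte RNA, fewer cells with a miRNA and less of it per cell cannot be told apart.

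miR-489 had 26.0, 17.3 and 28.1 RPM in LO replicates 1 to 3, from 15, 8 and 40 reads. In SO replicates 1 to 3 it had 39.7, 37.0 and 44.3 RPM, from 76, 71 and 97 reads. The highest LO library was lower than the lowest SO library, an order for which miR-489 was picked out earlier and which 2 of the 104 tested miRNAs, miR-489 and miR-9-1, had (1.92%; 3.85% in either direction). miR-489 had a mean of 23.8 ± 5.71 RPM in LO, against 40.3 ± 3.71 RPM in SO (± SD, 3 libraries a group). Its log2 fold change was -0.76 (SE 0.59), and it was -0.75 (SE 0.35) scaled to listed reads and -1.04 (SE 0.35) with DESeq2 size factors. Leaving out each library in turn gave -0.89 to -0.56.

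Counting error was wide in LO, where miR-489 rested on few reads. The 95% Poisson interval of miR-489 was 7.48 to 34.2 RPM in LO replicate 2 and 20.1 to 38.2 RPM in LO replicate 3. In SO replicate 2, the lowest SO library, it was 28.9 to 46.7 RPM, so the intervals of the nearest libraries of the groups overlapped. For miR-335 the interval was 40.3 to 87.7 RPM in LO replicate 2 and 126 to 167 RPM in LO replicate 3. Those LO libraries therefore stood further apart than counting error, with SO replicate 1 at 139 to 175 RPM and SO replicate 3 at 83.9 to 110 RPM. Intervals cover counting error only, and reads were not treated as molecules.

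**Figure D1:**
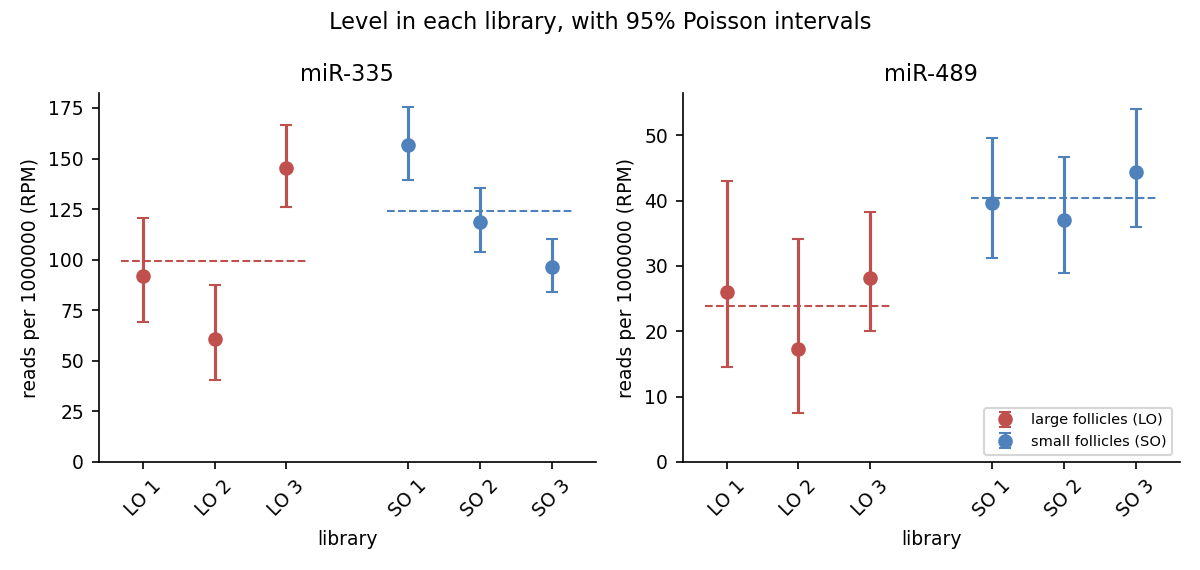
RPM (y axis) of miR-335 and miR-489 in each library (x axis), LO in red and SO in blue, with 95% Poisson intervals and the group mean as a dashed line. miR-335 overlaps between the groups, from 60.7 to 145 RPM in LO and from 96.4 to 157 RPM in SO, and miR-489 does not, with 28.1 RPM as the highest LO value and 37.0 RPM as the lowest SO value.

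As a share of the listed miRNA reads, which removes the low total of LO replicate 2, miR-335 held 0.303%, 0.361% and 0.487% in LO replicates 1 to 3. In SO replicates 1 to 3 it held 0.543%, 0.507% and 0.414%. LO replicate 1 was then the lowest library, with an exact Clopper-Pearson 95% interval of 0.227 to 0.397, and LO replicate 3 lay within the SO range. miR-335 had a mean of 0.384% ± 0.0936 in LO, against 0.488% ± 0.0665 in SO (± SD, 3 libraries a group).

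miR-489 held 0.0859%, 0.103% and 0.0940% of the listed reads in LO replicates 1 to 3, against 0.138%, 0.158% and 0.190% in SO replicates 1 to 3. The groups did not overlap on this scale either, which held for 7 of the 104 tested miRNAs in the same direction (6.73%; 15.4% in either direction). Its LO shares were close together, at 0.0944% ± 0.00864, beside 0.162% ± 0.0266 in SO. With the reads of a group pooled, miR-489 took 63 of 67760 listed reads in LO (0.0930%, 0.0715 to 0.119) and 244 of 151130 in SO (0.161%, 0.142 to 0.183). The pooled share of miR-335 was 0.425% (0.377 to 0.477) in LO and 0.489% (0.454 to 0.525) in SO.

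Spread between replicates was set beside counting error by the chi-square of the reads over its degrees of freedom, which is near 1 where replicates differ by counting alone. For miR-489 it was 0.0929 in LO, where 1 of the 104 tested miRNAs, miR-489 itself, was at or below that value, and 2.32 in SO. For miR-335 it was 5.31 in LO and 4.72 in SO. The median over the tested miRNAs was 3.87 in LO and 3.78 in SO. This value grows with the number of reads. The coefficient of variation of the share, which does not carry the number of reads in this way, was 24.4% in LO and 13.6% in SO for miR-335 and 9.16% in LO and 16.5% in SO for miR-489. Both lay below the medians of 36.2% in LO and 22.6% in SO, which were taken over all tested miRNAs and not matched for abundance. Counting error makes this coefficient larger where reads are few. With 15, 8 and 40 reads, the LO libraries could not have shown a small difference in miR-489 between replicates.

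Ranks within a library need no scaling. Among the 326 names miR-335 ranked 45, 28.5 and 26 in LO replicates 1 to 3, against 22, 25 and 24 in SO replicates 1 to 3, where ties share a mean rank. miR-489 ranked 76, 58 and 63.5 in the LO libraries and 48.5, 45.5 and 38 in the SO libraries. By rank both miRNAs stood lower in every LO library than in any SO library, which 13 of the 104 tested miRNAs did (12.5%; 19.2% in either direction). Over all 6 libraries miR-335 was 27 and miR-489 was 56 in mean RPM.

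The ratio of the 2 miRNAs within a library needs no scaling either. There were 3.53, 3.50 and 5.18 reads of miR-335 per read of miR-489 in LO replicates 1 to 3, against 3.95, 3.21 and 2.18 in SO replicates 1 to 3. The highest ratio was in LO replicate 3 and the lowest in SO replicate 3, and the other 4 libraries lay between 3.21 and 3.95. The exact binomial 95% interval was 3.67 to 7.45 in LO replicate 3 and 1.70 to 2.80 in SO replicate 3. On the log2 scale with 0.5 reads added to each, the ratio averaged 1.96 ± 0.34 in LO and 1.59 ± 0.43 in SO. The difference of 0.37 was a little above the SD of the LO libraries and below that of the SO libraries. Without LO replicate 3 the difference was 0.18, and without SO replicate 3 it was 0.14.

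**Figure D2:**
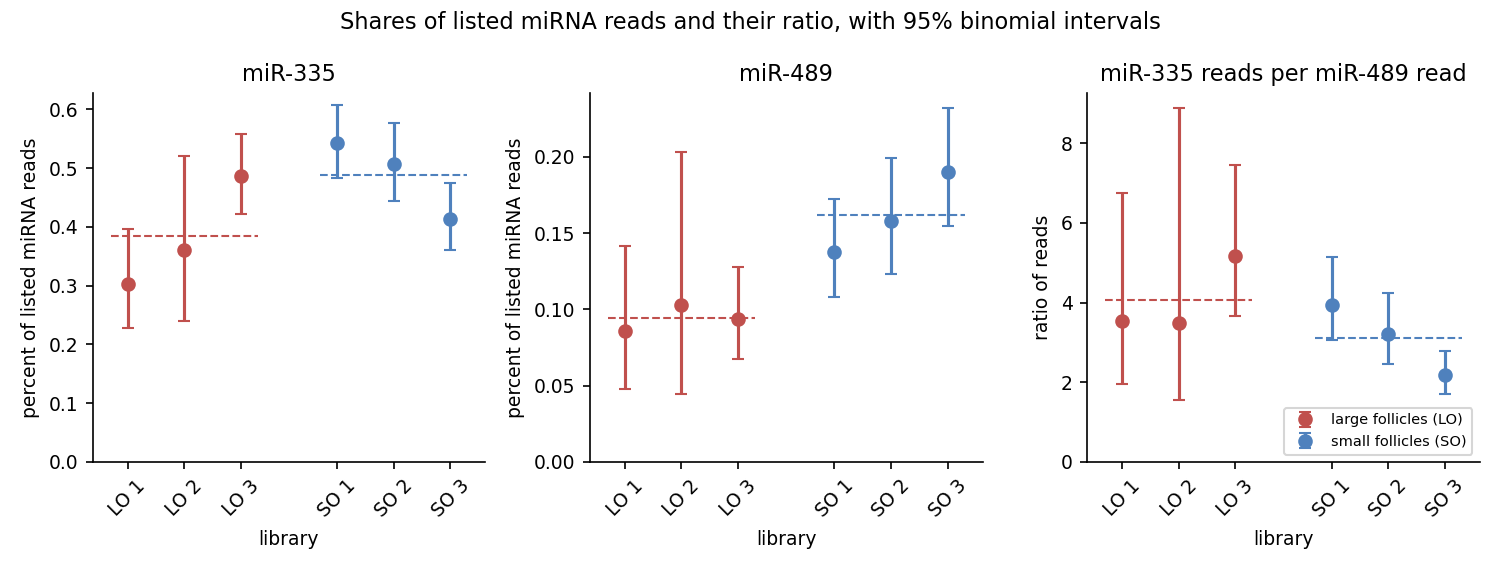
Percent of the listed miRNA reads held by miR-335 and by miR-489 (first and second panel, y axis) and reads of miR-335 per read of miR-489 (last panel) in each library (x axis), LO in red and SO in blue, with exact 95% binomial intervals and group means dashed. The miR-489 shares of LO, 0.0859% to 0.103%, lie below those of SO, 0.138% to 0.190%, while the ratio overlaps between the groups.

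Set among the rest of the profile, both miRNAs lay on the lower side of the comparison of LO with SO. The limma fit over the 104 miRNAs with enough reads called 0 at a false discovery rate (FDR) of 0.05, or 0%, and 4 had an unadjusted p under 0.05 (miR-210, miR-184, let-7c and miR-152, named after their values were seen). edgeR's quasi-likelihood test on the recovered reads called 2 of 104 (1.92%), miR-210 and miR-184, both higher in LO, and DESeq2 called 0. The median log2 fold change of the 104 was 0.29, with 72 above 0 and 32 below it (69.2% above). With TMM scaling that median was 0.05 and 52.9% were above 0. Relative to the median of all tested miRNAs, miR-335 was at -0.67 and miR-489 at -1.05 on the deposited scaling, and at -0.67 and -1.05 with TMM. Of the 104 miRNAs, 16 had a lower log2 fold change than miR-335 and 4 a lower one than miR-489.

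**Figure D3:**
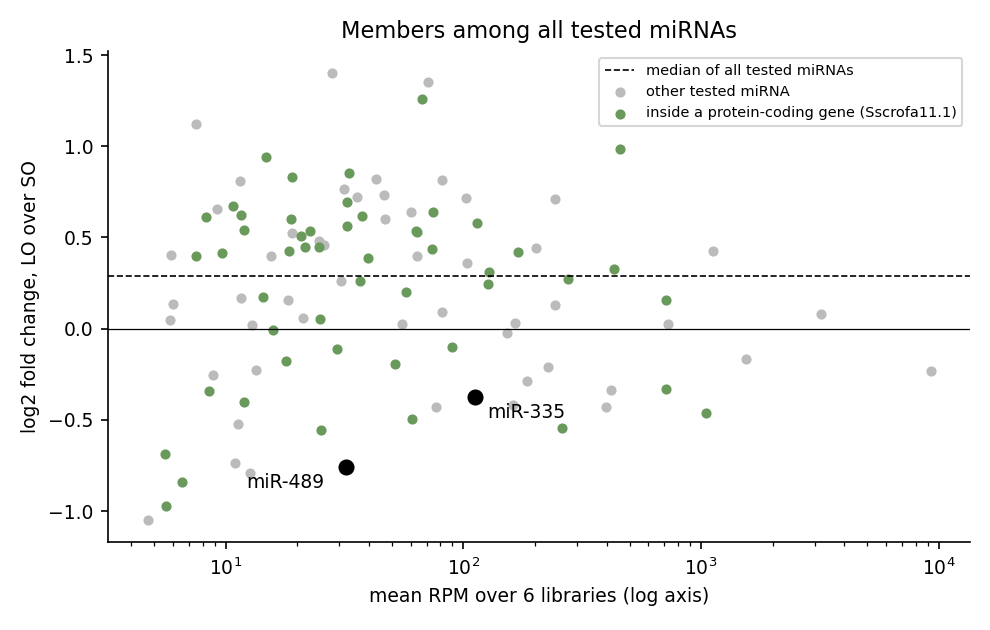
Log2 fold change of LO over SO (y axis) against mean RPM over the 6 libraries (x axis, log scale) for the 104 tested miRNAs. Those with a matched locus inside a protein-coding gene of Sscrofa11.1 are green. The others, unmatched names among them, are grey, and miR-335 and miR-489 are black. The dashed line is the median of 0.29; miR-335 lies at -0.38 and miR-489 at -0.76, with 16 and 4 miRNAs below them.

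Both miRNAs stayed on the lower side under each of 18 other settings, and the size depended on the setting. The log2 fold change of miR-335 ran from -0.69 to -0.07 and that of miR-489 from -1.12 to -0.56. Relative to the median of all miRNAs in the same fit, miR-335 ran from -0.86 to -0.30 and miR-489 from -1.30 to -0.77. The value of -0.30 for miR-335 came from leaving out LO replicate 1, the library with its lowest share.

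**Figure D4:**
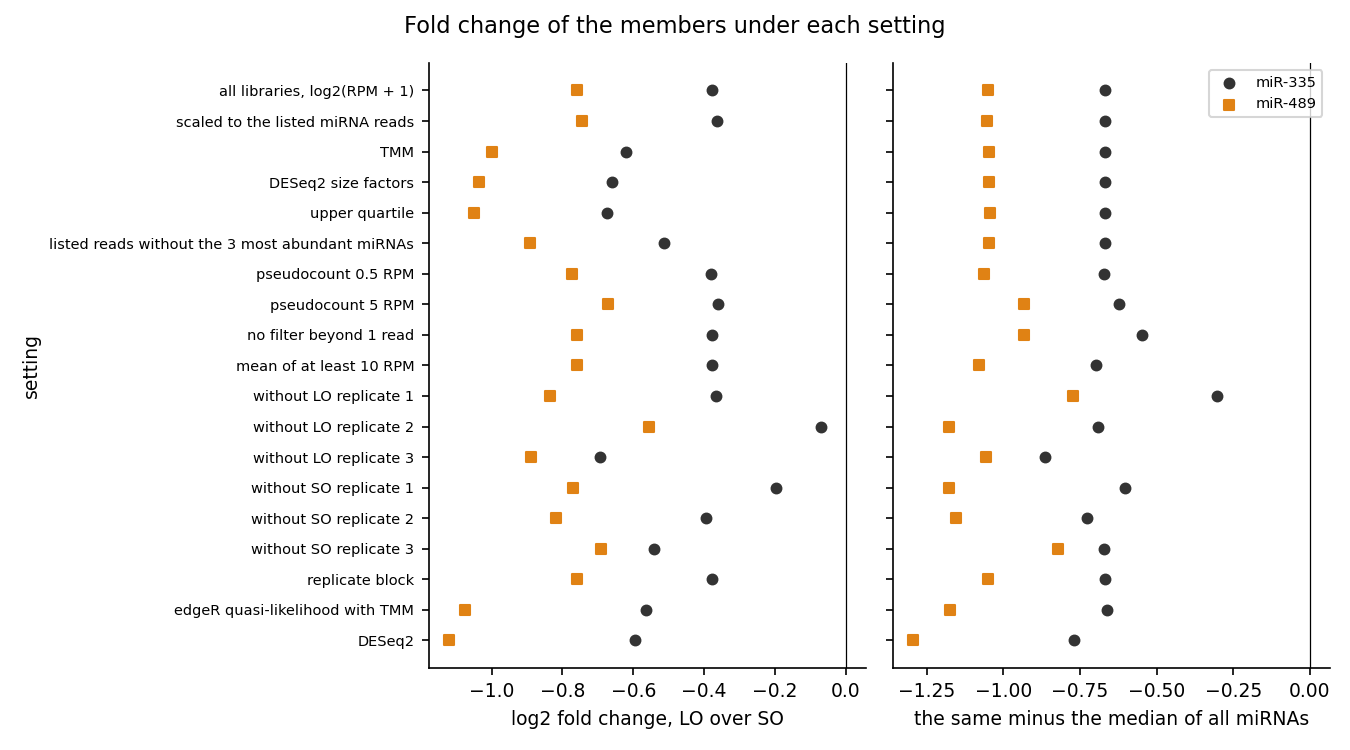
Log2 fold change of LO over SO (left panel, x axis) and the same minus the median of all miRNAs in that fit (right panel, x axis) of miR-335 (circles) and miR-489 (squares) under each setting (y axis). All points lie below 0; the nearest to 0 is miR-335 without LO replicate 2, at -0.07, and after the median is taken off it is miR-335 without LO replicate 1, at -0.30.

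The miRNAs next to miR-335 in the order of miRNA genes along its chromosome had log2 fold changes on both sides of 0. That order gives no distances, and whether any of them shares a transcript with miR-335 was not tested. miR-29a and miR-29b, which repress collagens and DNA methyltransferases, averaged 59.8 ± 31.3 and 18.2 ± 10.8 RPM in LO, against 32.9 ± 4.76 and 12.9 ± 7.58 RPM in SO. miR-29a was at 95.5, 36.8 and 47.0 RPM in LO replicates 1 to 3, against 38.1, 31.8 and 28.8 RPM in SO replicates 1 to 3, so LO replicate 1 stood highest and the groups overlapped in RPM. By share of listed reads and by rank, miR-29a was higher in every LO library than in any SO library. On those scales, 15.4% and 19.2% of the tested miRNAs did not overlap, in either direction. The log2 fold changes were 0.73 (SE 0.57) for miR-29a and 0.40 (SE 0.67) for miR-29b.

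On the other side of miR-335, miR-183 and miR-182, made together in sensory cells, averaged 66.3 ± 21.1 and 372 ± 75.9 RPM in LO, against 87.7 ± 13.9 and 464 ± 28.9 RPM in SO. Their log2 fold changes were -0.43 (SE 0.54) and -0.34 (SE 0.44), close to the -0.38 of miR-335. By rank, miR-183 stood lower in every LO library than in any SO library, which 12.5% of the tested miRNAs did. None of these 4 passed FDR 0.05 by limma with all libraries, and each kept its sign under the 18 settings, with miR-29b at 0.00420 without LO replicate 1. miR-96, and miR-653, which is known from the CALCR intron in human, were not among the listed names and so have no values here. The miR-490 names had 2 reads in all, both of miR-490-3p.

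**Figure D5:**
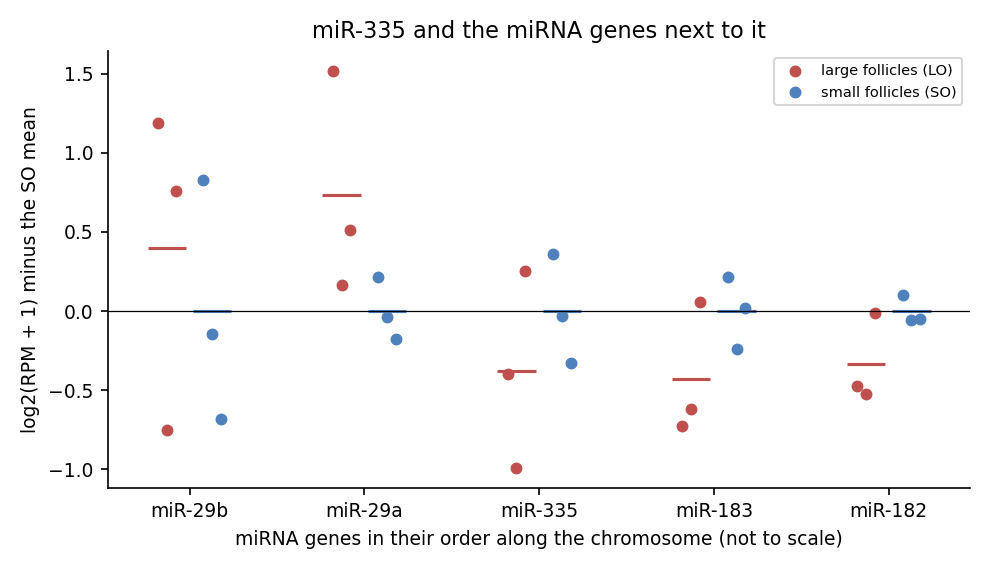
log2(RPM + 1) of each library minus the SO mean (y axis) for miR-335 and the listed miRNAs nearest to it in gene order. The x axis follows their order along the chromosome, not to scale, with LO in red left of SO in blue and group means as bars. The LO means of miR-29b and miR-29a lie above the SO means by 0.40 and 0.73, and those of miR-335, miR-183 and miR-182 lie below by 0.38, 0.43 and 0.34.

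Other miRNAs known from introns of protein-coding genes in human were set beside all tested miRNAs, with no test of the difference. Of 85 listed names of that kind, 37 had enough reads to test, and 0 of the 37 passed FDR 0.05 by limma. Leaving out miR-335 and miR-489, 27 of 35 (77.1%) had a log2 fold change above 0 and 8 below it, beside 72 of 104 (69.2%) above 0 among all tested miRNAs. The median was 0.41, beside 0.29 for all tested miRNAs. The 35 ran from -0.97 to 1.26. With miR-335 and miR-489 the median was 0.40, and it was 0.17 with TMM, -0.01 without LO replicate 1 and 0.85 without LO replicate 2.

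The most abundant of them were miR-128, miR-103 and miR-26a, with the matched locus inside R3HDM1, PANK3 and CTDSP2 in the pig gene table. In human, miR-128 is known from R3HDM1 and ARPP21, miR-103 from PANK genes and miR-26a from CTDSP genes. The levels therefore cannot be tied to a single host gene. miR-128 had a mean of 886 ± 252 RPM in LO, against 1208 ± 242 RPM in SO. miR-103 had a mean of 508 ± 285 RPM in LO, against 348 ± 16.4 RPM in SO, and miR-26a, which represses the methyltransferase gene EZH2, one of 303 ± 91.5 RPM in LO, against 246 ± 48.7 RPM in SO. Their log2 fold changes were -0.46, 0.33 and 0.27; that of miR-103 was below 0 without LO replicate 1 and that of miR-26a in 3 of the 18 settings, upper quartile scaling among them. By the pig gene table, with at most 1 locus matched per name, 53 tested names had a locus inside a protein-coding gene. Of these, 36 were above 0 (67.9%, beside 69.2% of all tested) and 17 below, with a median of 0.39. Names with an unmatched locus were not counted among the 53.

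miR-335 was the best covered of the miRNAs from imprinted loci. Of 22 other listed names from loci imprinted in human or mouse, 19 had no read in any library, which allows each up to 0.00137% of the 218890 listed reads. The remaining 3 had 35 reads in all, against 1027 for miR-335. miR-296-3p and miR-296-5p, from the GNAS locus, had 25 and 8 reads, and miR-432-5p, from the DLK1-DIO3 locus, had 2. miR-296-3p had 7, 1 and 3 reads in LO replicates 1 to 3, against 6, 2 and 6 in SO replicates 1 to 3, too few to test.

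miR-542-3p, which shares bases 2 to 7 with miR-489, was rare. It had 2, 4 and 12 reads in LO replicates 1 to 3, against 14, 9 and 6 in SO replicates 1 to 3, or 6.86 ± 2.93 RPM in LO, against 4.91 ± 2.29 RPM in SO. miR-489 had more reads than miR-542-3p in every library.

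The patterns most like those of the pair over the 6 libraries were found by Pearson's r on log2(RPM + 1), given as a description. All of them share 6 libraries and the low listed total of LO replicate 2, and no p is given. For miR-335 they were miR-187 (r = 0.96), miR-218b (0.93) and miR-128 (0.92), and with scaling to listed reads r was 0.89, 0.92 and 0.83. miR-187 had a mean of 9.49 ± 5.60 RPM in LO, against 15.7 ± 4.02 RPM in SO, and miR-218b one of 4.22 ± 2.51 RPM in LO, against 6.85 ± 0.947 RPM in SO. For miR-489 the most alike were miR-9-1 (0.91), miR-10b (0.89) and miR-187 (0.85), with 0.80, 0.91 and 0.67 after scaling to listed reads. miR-9-1, whose mature sequence is also listed under another name, had a mean of 8.32 ± 3.81 RPM in LO, against 13.7 ± 2.17 RPM in SO. Other listed miR-9 names overlapped between the groups. miR-9-2 had 10.4 to 15.4 RPM in LO and 9.90 to 17.8 RPM in SO, and miR-9 had 1.74 to 6.32 and 5.21 to 9.92 RPM. How reads were divided between these names was not tested. miR-10b, a miRNA of the HOX clusters, had a mean of 346 ± 110 RPM in LO, against 450 ± 58.7 RPM in SO. In LO replicate 2, miR-187 and miR-9-1 had 2 reads each and miR-218b had 1, so their r rests on few reads there. miR-128 had 332 reads in that library and miR-10b had 102. Between miR-335 and miR-489 r was 0.66, and 0.49 after scaling to listed reads.

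The miRNAs nearest in level did not have these patterns. Next to miR-335 in mean RPM were miR-191 above and miR-20a below it. miR-191 had a mean of 140 ± 66.5 RPM in LO, against 87.0 ± 16.0 RPM in SO, and miR-20a one of 117 ± 40.3 RPM in LO, against 89.7 ± 26.4 RPM in SO. Next to miR-489 were miR-423-3p above and miR-99b below it. miR-423-3p had a mean of 46.0 ± 44.7 RPM in LO, against 18.7 ± 1.44 RPM in SO, and miR-99b one of 41.7 ± 23.5 RPM in LO, against 21.4 ± 3.92 RPM in SO. These 4 had higher means in LO, while miR-335 and miR-489 had lower ones. Among all tested miRNAs, 69.2% had a log2 fold change above 0. Each of the 4 had its lowest LO value in LO replicate 2. There miR-423-3p, at 8.67 RPM, was below the SO range of 17.2 to 20.1 RPM, and the others lay within their SO ranges.

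Markers of other cells differed between libraries. The 8 granulosa and cumulus markers, all detected, summed to 325 to 1158 RPM in LO and 392 to 736 RPM in SO. Their share of listed reads was 3.82% in LO replicate 1, where that of miR-335 was lowest, and 1.68% to 2.56% in the other 5 libraries. The 9 theca, stroma and smooth muscle markers summed to 73.7 to 132 RPM in LO and 45.2 to 101 RPM in SO, with miR-214 at 0 reads. The 5 skeletal and heart muscle markers summed to 9.83 to 17.4 RPM in LO and 3.66 to 5.74 RPM in SO. These sums rested on few reads, with miR-133a-5p and miR-133b at 0 reads. miR-1 had 14 reads in LO and 18 in SO, miR-133a-3p 13 and 10, and miR-206 3 and 1. Endothelial, erythroid, leukocyte and liver markers took at most 0.203% of listed reads each, all 10 names detected, with leukocyte markers highest in SO replicate 1. miR-205, miR-202-5p and miR-34c made up the germ cell list, which was drawn up with earlier results of these data known. They took 28.6% to 38.7% of listed reads in LO and 37.6% to 43.7% in SO. Nearly all of this was miR-205, with a mean share of 34.0% in LO and 39.3% in SO. None of them is found in oocytes alone, and miR-202-5p was also counted among the granulosa and cumulus markers. The part of these markers in the levels of miR-335 and miR-489 was not tested.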

How the data were processed

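The authors deposited 1 value per mature miRNA and library under the header TPM. Within a library all values are whole multiples of what 1 read is worth, whatever the length of the miRNA, so the deposited values were taken as RPM. Dividing gave whole reads for 100% of values above 0, within 0.02 reads. Per the submitters' processing notes the tools were edgeR, Bowtie2 2.2.2, cutadapt and bcl2fastq and the build was Sscrofa10.2; their roles, and any use of molecular identifiers, are not stated in the sources used here.

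In R 4.3.3, a limma 3.58.1 fit of group alone, with an intensity trend, was made to log2(RPM + 1), and p-values were adjusted by Benjamini-Hochberg over 104 miRNAs that passed edgeR's filterByExpr on recovered reads. On recovered reads, edgeR 4.0.16 (quasi-likelihood, TMM) was run on these 104, and DESeq2 1.42.0 on the 242 miRNAs with any read. The fit was also run on simulated counts with the same dispersion for every miRNA and no shift of a whole library. No conclusion is drawn from that run. Scaling alternatives kept the mean level of the deposited totals.

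The miRNAs, lists and naming rule were chosen with earlier results of these data known. The rule names the pair, the 3 most alike miRNAs of each, the next in level, listed neighbours, the 3 most abundant intronic and imprinted names and those sharing a seed; miR-542-3p shares 6 of the 7 seed bases and was added. Poisson and binomial intervals used scipy 1.17.1.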

Additional observations from a re-analysis of the deposited data

How the results depend on the processing

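The log2 fold changes of miR-335 and miR-489 were below 0 in all 16 alternatives that bear on them. For miR-489, at -0.76, 4 of the 16 moved the value by more than 1 SD of its replicates: -1.04 with DESeq2 size factors, -1.05 with upper quartile scaling, -1.08 by edgeR and -1.12 by DESeq2. For miR-335, at -0.38, none did, though its SD is wide. Leaving out 1 library gave -0.69 to -0.07 for miR-335, -0.89 to -0.56 for miR-489, 0.14 to 0.57 for the difference in their log2 ratio (0.37) and -0.01 to 0.85 for the median of the intronic list (0.40). The count of miRNAs past FDR 0.05 was 0 by limma, 2 by edgeR, and 0 to 18 with 1 library left out; the 18 came without LO replicate 2 (17.3% of 104, all higher in LO), and neither miR-335 nor miR-489 was among them. With the replicate number as a block the values were -0.38 and -0.76, the count 0 and the difference in log2 ratio 0.37. Same-numbered libraries did not deviate together (r = -0.34, -0.22 and 0.08 over tested miRNAs), and differently numbered ones had r from -0.29 to 0.43. With 3 libraries a group, these values cannot show whether the numbers pair libraries. Depth limits miR-489 in LO replicate 2, where it had 8 reads and a count of 0 allows up to 6.50 RPM. The causes of these shifts were not tested.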
